A study of Mus musculus with 9 samples.

Results

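Expression of 33 genes of the endothelium, the cell layer that lines blood and lymph vessels, was followed in RNA sequencing libraries of whole mouse islets of Langerhans. The genes were taken as a list of symbols and all 33 were found among the 52459 rows of the deposited count table. Islets of WT (+/+), db/+ (heterozygous) and db/db (-/-) mice aged 12 weeks were compared, with 3 libraries in each group. The db allele is a mutation of Lepr, the leptin receptor gene, and mice that carry 2 copies become obese and diabetic. All 9 libraries have the same strain label. The labels give neither the sex of the mice nor how many animals gave each library, so the p-values rest on how far these libraries differ within a group, which may be technical spread.

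Islets are crossed by a dense bed of capillaries whose walls are pierced by fenestrae, small pores closed by a diaphragm that the protein of Plvap forms. Beta cells secrete VEGF-A, which acts on endothelial KDR (VEGFR2) and keeps the capillaries dense and fenestrated, while FLT1 (VEGFR1) binds VEGF-A and limits how much reaches KDR. Angiopoietins act on TEK (TIE2), with TIE1 as its partner and PTPRB as a phosphatase that restrains it, and apelin acts on APLNR. In sprouting vessels, tip cells carry much DLL4, ESM1, APLN and ANGPT2. Endothelial cells share their islet with pericytes, macrophages and hormone cells, and several members are also made elsewhere, such as Prox1 in hormone and duct cells, Lyve1 in some macrophages and Nrp1 in nerve and smooth muscle.

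The libraries held between 8860024 and 11734886 counts, and 3 counts, the limit that a count of 0 allows, corresponded to 0.238 to 0.412 CPM (read counts scaled to the TMM-normalised library size), for counting error only. Summed hormone genes and other endocrine markers stood at 105093 to 141917 CPM in all 9 libraries, and Pecam1, Cdh5 and Kdr were counted in each one. Libraries differed in ways that genotype does not name, the levels of sex-linked genes among them. Xist was at 0.722 CPM in WT 2 and at most 0.506 CPM in db/+, but at 308 to 948 CPM in the 3 db/db libraries and at 565 and 596 CPM in WT 1 and WT 3. Summed Y-linked genes were at 219 to 417 CPM in WT and db/+, at 176 CPM in db/db 1, at 1.11 CPM in db/db 2 and at 0.108 CPM in db/db 3, so WT 1, WT 3 and db/db 1 held both. By these genes, WT 2 and all db/+ libraries looked male, while db/db 2 and db/db 3 looked female. Apparent sex thus largely followed genotype in db/db against db/+. The part of sex there was not tested. A run with a term for Y-linked counts is given below with its limit. Lars2 and Gm42418 took 17.9% and 13.3% of counts in db/db 1 and db/db 2 and at most 2.58% elsewhere.

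Per kilobase of exon, the mean WT levels ran from 39.3 CPM for Plvap down to 0.073 CPM for Vwf, with lengths taken from an annotation of another assembly. Kdr (25.2), Esm1 (25.02), Prox1 (19.2), Nrp1 (14.8) and Lyve1 (13.6) followed Plvap. The commonest members are thus a fenestral protein, the main VEGF receptor and a VEGF-responsive secreted proteoglycan. Cldn5, a tight junction protein, lay near the limit that a count of 0 allows, with 6, 8 and 0 counts (WT), 1, 2 and 3 counts (db/+) and 10, 8 and 10 counts (db/db), and was the 1 member that failed the filter on low counts. The other 32 were among the 16826 genes tested.

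**Figure D1:**
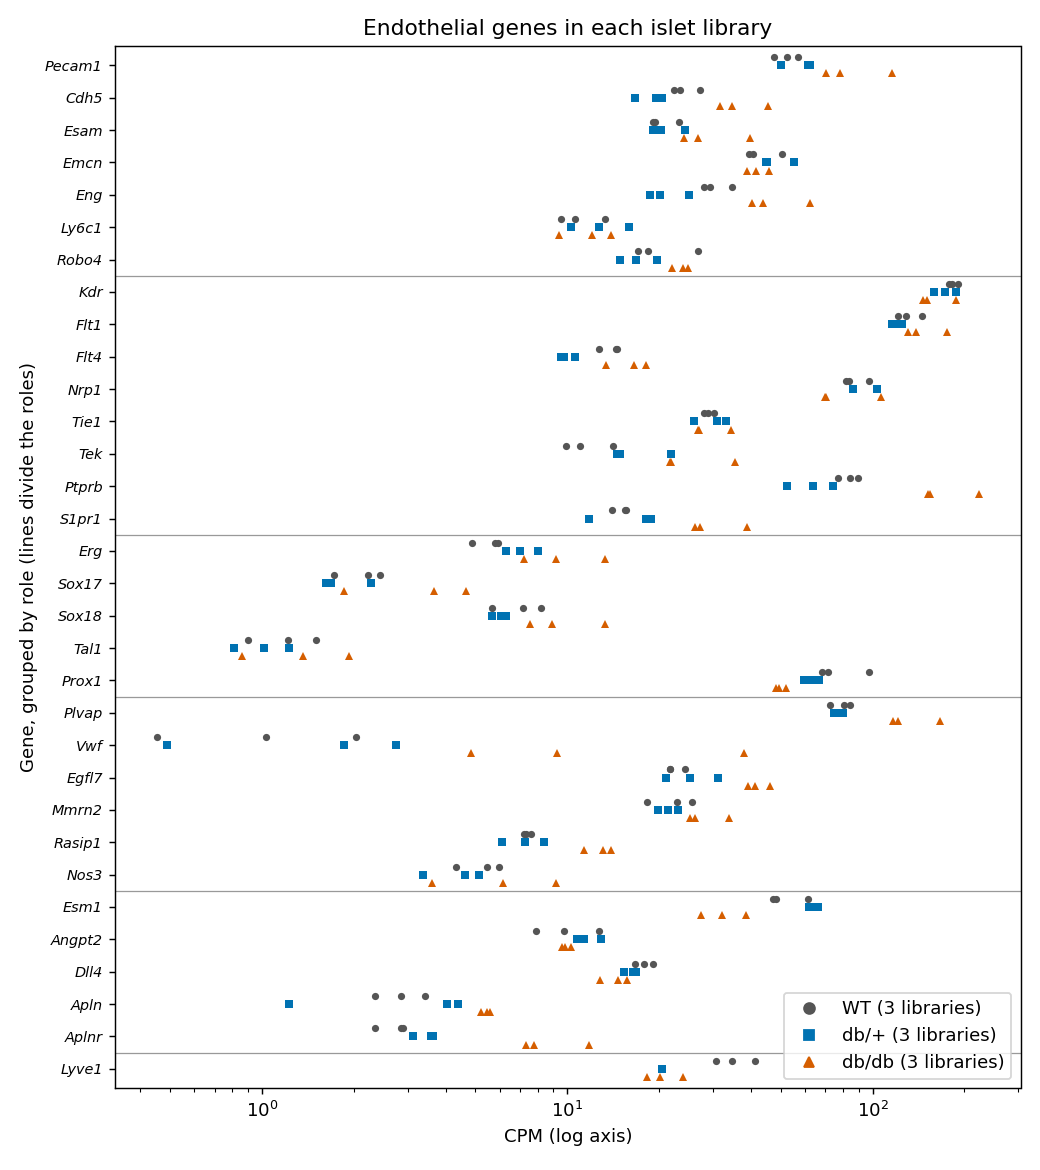
Level of each of the 32 tested genes in every library, in CPM on a log axis, with 1 point per library coloured by group and genes ordered by role. Kdr and Flt1 sit near the top of the axis in all groups and Tal1 near the bottom, while Vwf is low in WT and db/+ and higher in db/db. Cldn5, which was not tested, is not drawn.

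Endothelial promoters are read by ETS factors, ERG among them, whose core binding letters are GGAA. Upstream windows of 250 bases from RefSeq (GRCm38.p6) were matched to 19 of the 33 members, with 26 windows in all. The letters CAGGAA or CCGGAA, on either strand, stood in a window of 10 of the 19 matched members (52.6%), in 42.3% of the 26 windows, and in 35.1% of the 32851 upstream windows in the table. Such a match describes the letters only. The 3 windows below belong to a gene that rose, one that passed no test and one that fell in db/db islets; capitals mark the match, here TTCCTG, which is CAGGAA read on the other strand. They lie at chr7:45627287-45627536 (plus strand) for Rasip1, chr4:118489850-118490099 (minus strand) for Tie1 and chr13:113209409-113209658 (plus strand) for Esm1.
Rasip1: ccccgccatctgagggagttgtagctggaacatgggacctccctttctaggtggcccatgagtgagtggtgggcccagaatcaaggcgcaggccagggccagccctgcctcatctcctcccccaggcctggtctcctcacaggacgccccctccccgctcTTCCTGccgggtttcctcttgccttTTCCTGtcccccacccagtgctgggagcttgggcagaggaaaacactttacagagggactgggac
Tie1: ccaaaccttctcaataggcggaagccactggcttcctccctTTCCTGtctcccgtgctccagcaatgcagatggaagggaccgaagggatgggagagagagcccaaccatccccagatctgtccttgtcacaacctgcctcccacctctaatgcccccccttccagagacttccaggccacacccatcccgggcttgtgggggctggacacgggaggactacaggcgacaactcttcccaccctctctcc
Esm1: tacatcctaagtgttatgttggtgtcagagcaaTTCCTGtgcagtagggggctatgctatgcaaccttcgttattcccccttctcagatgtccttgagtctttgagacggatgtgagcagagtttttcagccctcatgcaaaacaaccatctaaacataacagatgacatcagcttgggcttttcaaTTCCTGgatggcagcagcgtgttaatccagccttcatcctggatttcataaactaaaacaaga
Counted from the gene's start, the matches begin at -90 and -65 in Rasip1, at -209 in Tie1, and at -217 and -63 in Esm1. The 3 windows were taken from those that hold a match, so they do not compare the kinds of response.

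In db/db islets more of these genes were higher than lower. Against WT, 13 of 32 tested members rose, 3 fell and 16 did not pass the test, where 41.7% of all tested genes changed (21.8% higher and 19.9% lower). Against db/+, 16 rose, 2 fell and 14 did not pass, where 40.3% of all tested genes changed (20.6% higher and 19.7% lower). The share of members called in either direction was 50.0% against WT and 56.2% against db/+. The members' median log2 fold change was 0.42 against WT and 0.51 against db/+, beside 0.006 and 0.013 over all tested genes. Among the 32 tested members, all 3 db/db libraries lay above all WT libraries for 14 and below them for 4 (26.2% and 25.3% of all tested genes), and above all db/+ libraries for 16 and below them for 3 (26.2% and 26%). Cldn5, which was not tested, also lay higher in all db/db libraries than in the others. The 2 comparisons share the db/db libraries. A bulk level cannot tell apart more endothelial cells from more RNA per cell.

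db/db 1 held the highest value of its group for 26 of the 33 members. Without it, 12 rose and 5 fell against WT, and 11 rose and 2 fell against db/+, where 38.3% and 35.7% of all tested genes were called. When counts were scaled by library totals instead of TMM, the median log2 difference of all genes was -0.22 in both db/db comparisons. In that run 12 members rose and 6 fell against WT, and 11 rose and 6 fell against db/+. Of all tested genes, 44.5% and 43.2% were then called. Without WT 1, WT 3 and db/db 1, 11 rose and 3 fell against WT, and 13 rose and 4 fell against db/+, where 25% and 37.2% of all tested genes were called. Leaving Lars2 and Gm42418 out of the table gave 17 calls against WT and 19 against db/+, beside 16 and 18 with them (41.7% and 40.2% of all tested genes without them). A term for Y-linked counts gave 19 and 20 calls, where 28% and 26.3% of all tested genes were called. Its log2 value, centred on the mean of the libraries, was 1.08 to 2.32 except in db/db 2 (-5.69) and db/db 3 (-7.10). The term was thus estimated mainly within db/db, from db/db 1 beside db/db 2 and db/db 3, and db/db 1 was the library highest for most members. Summed over the 33 genes, levels were 1057 to 1163 CPM in WT, 1000 to 1134 CPM in db/+ and 1213 to 1645 CPM in db/db. As a share of raw counts the sum was 0.108% to 0.128%, 0.105% to 0.120% and 0.107% to 0.135%, so the groups overlapped on that scale.

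**Figure D2:**
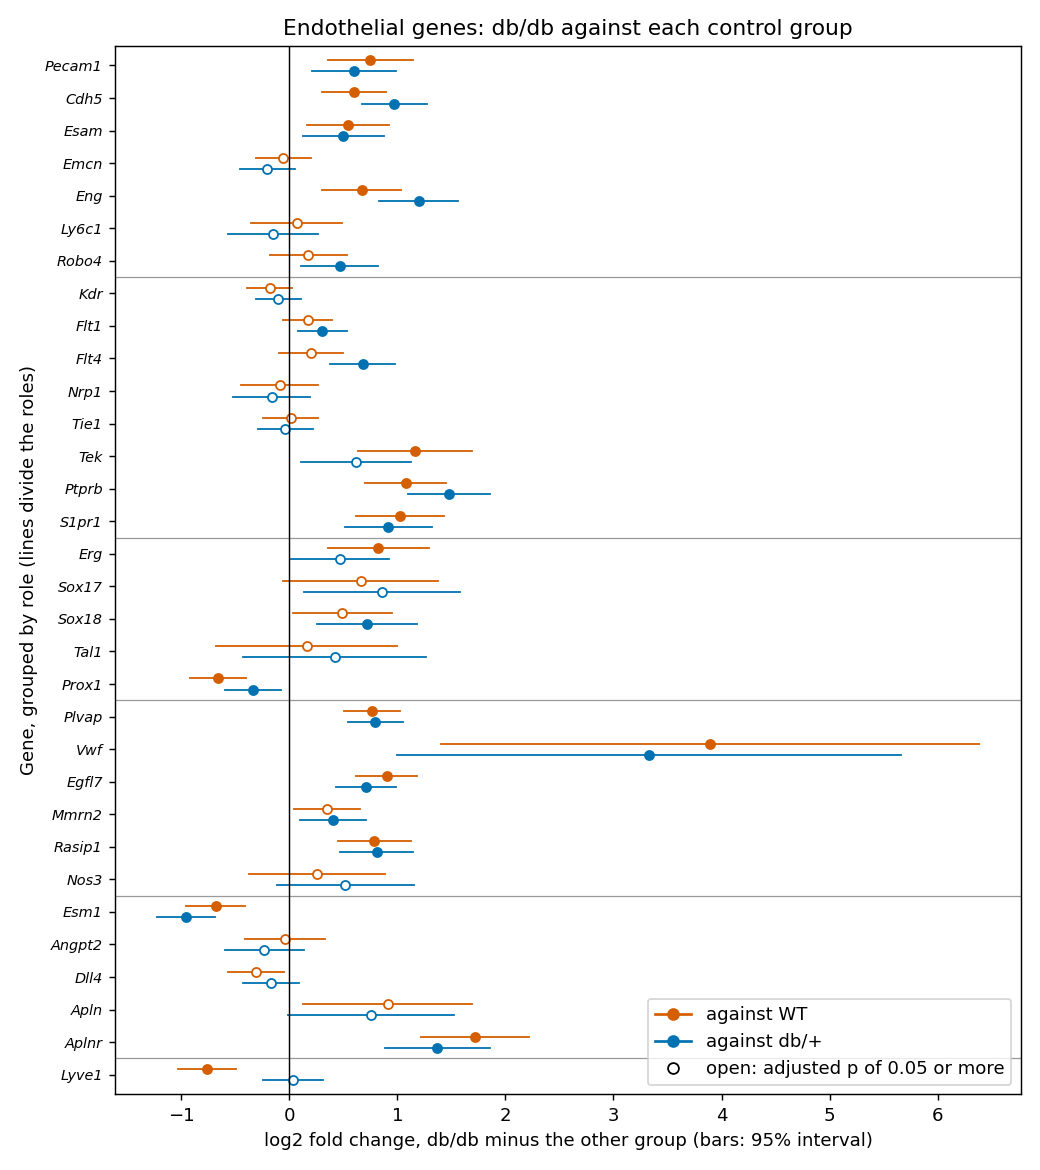
Log2 fold change of each tested member in db/db against WT and against db/+, with bars for the 95% interval and filled points for genes past the threshold of 0.05 on the adjusted p. Most filled points lie right of 0, Vwf and Aplnr farthest, while Esm1 and Prox1 lie left of 0 in both comparisons.

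Among the 8 junction and surface genes, 7 were tested, of which 4 rose against WT and 5 against db/+, and none fell. Of all tested genes, 21.8% and 20.6% were called higher. Pecam1 (CD31; chromosome 11, 106654213 to 106715281, GRCm38), the adhesion molecule most used to stain endothelium, stood at 56.9, 52.3 and 47.6 CPM (WT), 61.5, 62.3 and 50.00 CPM (db/+) and 116, 78.3 and 70.4 CPM (db/db). Each db/db library was above all 6 others. Its log2 fold change was 0.75 ± 0.18 (adjusted p = 0.0074) against WT and 0.60 ± 0.17 (adjusted p = 0.0209) against db/+, where the call was lost without db/+ 3. Cdh5, VE-cadherin of the adherens junction, stood at 27.3, 22.4 and 23.4 CPM (WT), 20.4, 19.6 and 16.7 CPM (db/+) and 45.3, 34.6 and 31.6 CPM (db/db). Again no db/db library overlapped the others, and the log2 fold changes were 0.60 ± 0.14 (adjusted p = 0.00329) and 0.97 ± 0.14 (adjusted p = 0.000104). Eng (endoglin), a TGF-beta co-receptor of endothelium, stood at 28.01, 29.4 and 34.5 CPM (WT), 18.7, 24.97 and 20.1 CPM (db/+) and 62.3, 40.1 and 43.9 CPM (db/db). It rose by a log2 fold change of 0.67 ± 0.17 (adjusted p = 0.00723) against WT and 1.20 ± 0.17 (adjusted p = 0.000195) against db/+, with its db/+ libraries all below its WT libraries. Esam, an endothelial cell adhesion molecule, stood at 23.3, 19.1 and 19.4 CPM (WT), 24.3, 20.3 and 19.1 CPM (db/+) and 39.7, 26.9 and 24.03 CPM (db/db). db/db 3 lay within the range of db/+, and the log2 fold changes were 0.54 ± 0.17 (adjusted p = 0.0252) and 0.50 ± 0.17 (adjusted p = 0.0361). Both Esam calls were lost without db/db 1 or WT 3, the first also without WT 2 and the second without db/+ 2 or db/+ 3.

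The other 3 tested surface genes were called in 1 comparison at most. Robo4, a guidance receptor that steadies the endothelial barrier, stood at 26.9, 18.4 and 17.1 CPM (WT), 16.7, 19.7 and 14.9 CPM (db/+) and 24.01, 24.9 and 21.98 CPM (db/db). WT 1 lay above all db/db libraries, and only the comparison with db/+ passed, at 0.46 ± 0.17 (adjusted p = 0.0399), beside 0.18 ± 0.16 (adjusted p = 0.416) against WT. That Robo4 call was lost when db/+ 1, db/+ 3 or any db/db library was left out. Emcn, a sialomucin of capillaries and veins, overlapped between all groups at 38.8 to 55.5 CPM, with log2 differences of -0.06 ± 0.12 (adjusted p = 0.727) and -0.21 ± 0.12 (adjusted p = 0.181). Ly6c1, a surface antigen whose counts can be shared with its near-identical neighbour Ly6c2, ranged over 9.38 to 15.9 CPM, also with overlap. Neither of these passed a test.

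Of the 3 VEGF receptors and their co-receptor Nrp1, none was called against WT, while Flt1 and Flt4 rose against db/+. Kdr (chromosome 5, 75932827 to 75979072) stood at 190, 178 and 182 CPM (WT), 188, 159 and 173 CPM (db/+) and 188, 150 and 147 CPM (db/db). The groups overlapped, and the log2 differences of -0.18 ± 0.10 (adjusted p = 0.143) against WT (95% interval -0.39 to 0.02) and -0.10 ± 0.10 (adjusted p = 0.431) against db/+ (-0.31 to 0.11) did not pass the test. Without db/db 1, Kdr fell against WT, at an adjusted p of 0.00941, as it did with scaling by library totals. Flt1 stood at 128, 121 and 145 CPM (WT), 118.7, 116 and 125 CPM (db/+) and 175, 130 and 139 CPM (db/db). Its db/db libraries lay above all db/+ libraries, but WT 3 was higher than db/db 2 and db/db 3, with 0.30 ± 0.10 (adjusted p = 0.0324) against db/+ and 0.17 ± 0.10 (adjusted p = 0.213) against WT. The Flt1 call against db/+ was lost without db/db 1 or any 1 of the db/+ libraries. Flt4 (VEGFR3), the receptor of VEGF-C, stood at 14.4, 12.7 and 14.5 CPM (WT), 9.54, 10.6 and 9.79 CPM (db/+) and 18.1, 13.4 and 16.5 CPM (db/db). Its db/+ libraries were the lowest, and it rose against db/+ (0.68 ± 0.14, adjusted p = 0.00165) while the difference from WT was 0.20 ± 0.14 (adjusted p = 0.256). Nrp1, the VEGF co-receptor, ranged over 69.6 to 107 CPM, with db/db 1 highest and db/db 2 and db/db 3 lowest of all 9 libraries, and passed no test (-0.09 ± 0.16, adjusted p = 0.681 and -0.16 ± 0.16, adjusted p = 0.451). Without db/db 1 it fell in both comparisons, at adjusted p of 0.0226 and 0.00868.

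Of the angiopoietin receptor pair, Tek was called against WT and Tie1 in no comparison. Tie1 ranged over 26.1 to 34.3 CPM with overlap, and its log2 differences were 0.01 ± 0.12 (adjusted p = 0.954) against WT (95% interval -0.25 to 0.27) and -0.04 ± 0.12 (adjusted p = 0.826) against db/+ (-0.29 to 0.22). Tek stood at 14.1, 9.93 and 10.97 CPM (WT), 21.9, 14.6 and 14.9 CPM (db/+) and 35.4, 21.9 and 21.7 CPM (db/db). All db/db libraries lay above WT and its log2 fold change there was 1.16 ± 0.24 (adjusted p = 0.00301), while against db/+ it was 0.61 ± 0.23 (adjusted p = 0.055), and db/db 3 lay below db/+ 1. Ptprb (VE-PTP), the phosphatase of TEK and VE-cadherin, stood at 84.3, 77.02 and 89.4 CPM (WT), 74.1, 63.7 and 52.5 CPM (db/+) and 224, 152 and 154 CPM (db/db). Every db/db library held more than any other, at 1.08 ± 0.17 (adjusted p = 0.000712) against WT and 1.48 ± 0.17 (adjusted p = 0.000107) against db/+. S1pr1, the receptor by which blood sphingosine 1-phosphate seals vessels, stood at 15.6, 15.4 and 14.02 CPM (WT), 18.8, 18.1 and 11.8 CPM (db/+) and 38.7, 27.1 and 26.3 CPM (db/db). It too did not overlap, at 1.02 ± 0.19 (adjusted p = 0.001) and 0.92 ± 0.19 (adjusted p = 0.00207).

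Of the 5 transcription factors, 1 rose and 1 fell in each db/db comparison, Erg rising against WT and Sox18 against db/+. That share of 40% was near the 41.7% and 40.3% of all tested genes called. Erg, the ETS factor of endothelial identity, stood at 5.95, 5.78 and 4.88 CPM (WT), 8.004, 7.003 and 6.28 CPM (db/+) and 13.3, 9.17 and 7.22 CPM (db/db). The db/db libraries lay above WT but db/db 3 was within db/+, with log2 fold changes of 0.82 ± 0.22 (adjusted p = 0.00824) and 0.47 ± 0.21 (adjusted p = 0.0942). Sox18, a SOXF factor of arterial and lymphatic endothelium, stood at 7.14, 8.22 and 5.69 CPM (WT), 6.06, 5.65 and 6.28 CPM (db/+) and 13.3, 7.56 and 8.94 CPM (db/db). Its db/db libraries were above all of db/+, but WT 2 was higher than db/db 2, with 0.72 ± 0.21 (adjusted p = 0.016) against db/+ and 0.49 ± 0.21 (adjusted p = 0.0791) against WT, and the call was lost without db/db 1 or db/+ 2. Sox17 and Tal1 were low, at 1.62 to 4.67 CPM and 0.808 to 1.92 CPM, overlapped between groups and passed no test.

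Prox1, the factor that sets lymphatic identity and is also made in islet hormone cells, fell. It stood at 71.7, 68.5 and 97.6 CPM (WT), 62.7, 66.9 and 59.6 CPM (db/+) and 49.3, 52.2 and 48.4 CPM (db/db). No library of db/db reached the lowest of WT or db/+, and the log2 fold change was -0.66 ± 0.12 (adjusted p = 0.000705) against WT and -0.34 ± 0.12 (adjusted p = 0.0387) against db/+. The second call was lost when any 1 library of db/+ or db/db was left out. Prox1 overlaps its antisense gene Prox1os, and since the counting strand is not given in the sources used here, the counts of the pair cannot be told apart.

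**Figure D3:**
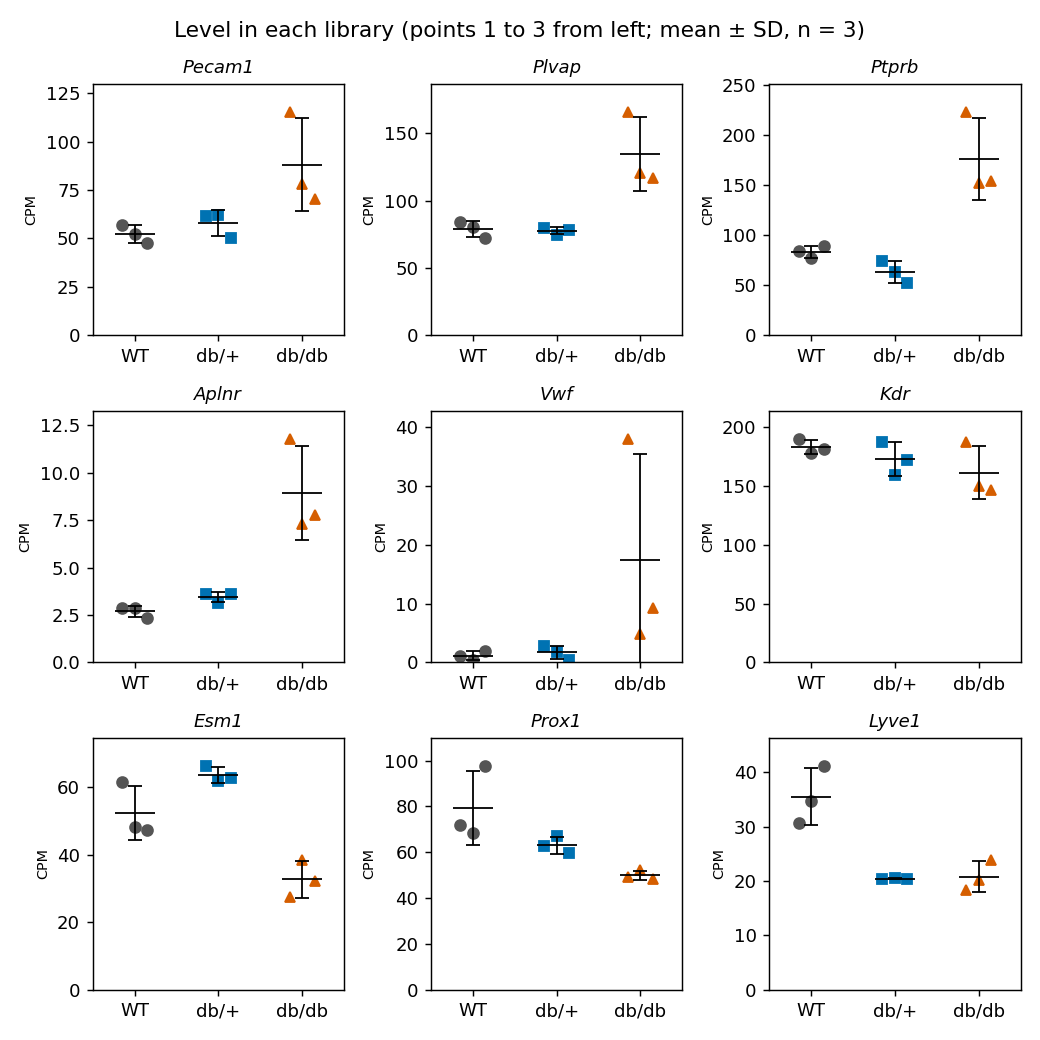
Level in CPM of 9 genes in each library, 1 panel per gene with a linear axis from 0, where points are libraries and bars the group mean and SD. Pecam1, Plvap, Ptprb and Aplnr are high in db/db without overlap, Kdr overlaps, Esm1 and Prox1 are low in db/db, and Lyve1 is high only in WT.

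Genes of fenestrae, secreted proteins and proteins inside the cell leaned most to the higher side among the roles with several members: 4 of 6 rose against WT and 5 of 6 against db/+, and none fell. Of all tested genes, 21.8% and 20.6% were called higher. Plvap (chromosome 8, 71497753 to 71511806) stood at 84.3, 80.4 and 72.6 CPM (WT), 80.04, 74.8 and 77.98 CPM (db/+) and 166, 121 and 117 CPM (db/db). The lowest db/db value was well above the highest of the other 6, and the log2 fold change was 0.76 ± 0.12 (adjusted p = 0.000259) against WT and 0.79 ± 0.12 (adjusted p = 0.000198) against db/+. Plvap overlaps Gtpbp3 in RefSeq, as Eng does Fpgs, Nos3 Atg9b and Angpt2 Mcph1, and such genes could share counts. Egfl7, a secreted matrix protein of endothelium, stood at 24.3, 21.7 and 21.6 CPM (WT), 31.1, 21.01 and 25.2 CPM (db/+) and 46.2, 39.1 and 41.2 CPM (db/db). db/db was above all other libraries, at 0.90 ± 0.13 (adjusted p = 0.000109) and 0.71 ± 0.13 (adjusted p = 0.000714). Rasip1, a RAS-related effector needed for vessel lumens, stood at 7.30, 7.22 and 7.62 CPM (WT), 8.41, 7.26 and 6.12 CPM (db/+) and 13.9, 13.1 and 11.3 CPM (db/db). It rose without overlap, at 0.79 ± 0.16 (adjusted p = 0.00137) and 0.81 ± 0.16 (adjusted p = 0.00113). Mmrn2, a matrix glycoprotein that binds VEGF-A and CD93, stood at 25.6, 22.9 and 18.3 CPM (WT), 23.04, 21.4 and 19.8 CPM (db/+) and 33.9, 26.1 and 25.2 CPM (db/db). WT 1 lay within the db/db range, and only the comparison with db/+ passed (0.40 ± 0.14, adjusted p = 0.0349, beside 0.34 ± 0.14, adjusted p = 0.0651 against WT), a call lost without db/db 1, db/+ 2 or db/+ 3. Nos3, the endothelial nitric oxide synthase, ranged over 3.38 to 9.19 CPM, overlapped and did not pass.

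Vwf (chromosome 6, 125552948 to 125686679), von Willebrand factor, is carried by endothelium of larger vessels and little by capillaries. It stood at 1.03, 0.452 and 2.03 CPM (WT), 2.75, 1.86 and 0.489 CPM (db/+) and 38.01, 4.83 and 9.27 CPM (db/db). All db/db libraries were above all others but spread widely, with db/db 1 at several times the level of db/db 2. The log2 fold change was 3.89 ± 1.04 (adjusted p = 0.0237) against WT and 3.33 ± 0.97 (adjusted p = 0.0337) against db/+. Without db/db 1 it was 2.62 and 2.06. The first call was lost without WT 1 or WT 2, and the second without WT 1 or any 1 db/+ library. limma-voom did not call it in either comparison.

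Genes of sprouting vessels divided. Esm1 (endocan; chromosome 13, 113209659 to 113218104), a secreted proteoglycan that VEGF-A induces in tip cells, stood at 61.7, 48.4 and 47.3 CPM (WT), 66.4, 62.01 and 62.7 CPM (db/+) and 27.4, 38.5 and 32.2 CPM (db/db). All db/db libraries lay below all others, and the log2 fold change was -0.68 ± 0.13 (adjusted p = 0.000875) against WT and -0.96 ± 0.13 (adjusted p = 5.77e-05) against db/+. Aplnr, the apelin receptor of venous and growing endothelium, went the other way, at 2.86, 2.89 and 2.34 CPM (WT), 3.64, 3.12 and 3.59 CPM (db/+) and 11.8, 7.31 and 7.76 CPM (db/db). It did not overlap, at 1.72 ± 0.23 (adjusted p = 6.15e-05) and 1.37 ± 0.23 (adjusted p = 0.000327), and was called in every alternative run for both comparisons. Its ligand Apln stood at 2.34 to 3.43 CPM in WT, 1.22 to 4.39 CPM in db/+ and 5.21 to 5.60 CPM in db/db. The db/db values were all above the others, but the log2 differences of 0.91 ± 0.36 (adjusted p = 0.0596) and 0.75 ± 0.36 (adjusted p = 0.109) did not pass. Dll4, the Notch ligand of tip cells, was lower in each db/db library (12.8 to 15.7 CPM) than in each WT library (16.6 to 19.1 CPM), at -0.31 ± 0.12 (adjusted p = 0.0518), which did not pass. It was -0.17 ± 0.12 (adjusted p = 0.274) against db/+. Angpt2, the TEK ligand released by activated endothelium, ranged over 7.92 to 12.8 CPM with no call (-0.04 ± 0.17, adjusted p = 0.871 and -0.23 ± 0.17, adjusted p = 0.295).

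Lyve1, the hyaluronan receptor of lymphatic endothelium and of some tissue macrophages, was highest in WT. It stood at 30.7, 34.7 and 41.2 CPM (WT), 20.4, 20.5 and 20.4 CPM (db/+) and 18.3, 20.2 and 23.9 CPM (db/db). All WT libraries were above those of the other groups, which overlapped each other. Against WT, the log2 fold change was -0.76 ± 0.13 (adjusted p = 0.000318) in db/db and -0.79 ± 0.12 (adjusted p = 0.011) in db/+, while db/db differed from db/+ by 0.03 ± 0.13 (adjusted p = 0.87). Of the tested members, Lyve1 alone was called between db/+ and WT, where 0 rose and 1 fell beside 0.606% and 0.82% of all genes, and that call was lost without db/+ 1 or db/+ 2. Of all tested genes, 1.43% were called in that comparison. All db/+ libraries lay above all WT libraries for 4 members and below them for 6, beside 12.1% and 10.4% of all genes. Those above were Tek (0.55 ± 0.24, adjusted p = 0.301), Erg (0.35 ± 0.22, adjusted p = 0.47), Esm1 (0.28 ± 0.12, adjusted p = 0.283) and Aplnr (0.35 ± 0.24, adjusted p = 0.535). Beside Lyve1, those below were Cdh5 (-0.37 ± 0.14, adjusted p = 0.218), Eng (-0.53 ± 0.17, adjusted p = 0.159), Flt4 (-0.48 ± 0.14, adjusted p = 0.108), Ptprb (-0.40 ± 0.17, adjusted p = 0.294) and Prox1 (-0.33 ± 0.12, adjusted p = 0.191).

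Other genes of lymphatics and macrophages are given beside it. Of 3 tested lymphatic genes, Stab2 and Reln fell in db/db against WT (-1.45 ± 0.41, adjusted p = 0.0127 and -0.94 ± 0.28, adjusted p = 0.0161) and Itga9, an integrin subunit, rose (0.79 ± 0.15, adjusted p = 0.000847). Against db/+, Itga9 rose (1.35 ± 0.15, adjusted p = 1.23e-05), while Stab2 (-0.58 ± 0.42, adjusted p = 0.297) and Reln (0.005 ± 0.29, adjusted p = 0.992) did not pass. In db/+ against WT, Stab2 (-0.86 ± 0.37, adjusted p = 0.285) and Reln (-0.95 ± 0.27, adjusted p = 0.108) were also lower, without a call. The Stab2 and Reln calls were lost without WT 1, and also without db/db 3 and db/db 1 respectively. The lymphatic chemokine gene Ccl21a had 0 counts in all 9 libraries. Summed macrophage markers, none of them at 0, were at 115 to 141 CPM in WT, 115 to 137 CPM in db/+ and 217 to 301 CPM in db/db. Against WT 4 of 12 rose (33.3%, beside 41.7% of all tested genes called), and against db/+ 6 of 12 rose (50%, beside 40.3%). Among the risen were Stab1 (1.43 ± 0.10, adjusted p = 1.85e-07 against WT), which sinusoidal endothelium also makes, and C1qa (0.85 ± 0.11, adjusted p = 3.96e-05). The other 8 did not pass against WT, among them Cd68, with means of 5.05 CPM (WT) and 4.51 CPM (db/db). The part of macrophages in the level of Lyve1 was not tested.

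Each gene was also set against Pecam1 in the same library, a description with no test, chosen after the values had been seen. The ratio was lower in all db/db libraries than in all 6 others for 9 of 32 other members, above them for 4, and overlapped for 19. Among all tested genes 46.2% were below and 4.01% above. Pecam1 itself was higher in every db/db library, so a gene with the same CPM in all libraries gives a lower ratio in db/db. Kdr per Pecam1 was 3.35, 3.40 and 3.83 (WT), 3.05, 2.56 and 3.45 (db/+) and 1.63, 1.92 and 2.08 (db/db). Tie1 per Pecam1 was 0.492, 0.580 and 0.609 (WT), 0.538, 0.499 and 0.522 (db/+) and 0.297, 0.345 and 0.381 (db/db). Both had no overlap, as had Emcn, Ly6c1, Nrp1, Angpt2 and Dll4, which passed no test by CPM, and Prox1 and Esm1, which had fallen. Esm1 per Pecam1 was 1.08, 0.926 and 0.996 (WT), 1.08, 0.996 and 1.25 (db/+) and 0.238, 0.492 and 0.458 (db/db). Plvap per Pecam1 overlapped, at 1.48, 1.54 and 1.53 (WT), 1.30, 1.20 and 1.56 (db/+) and 1.44, 1.54 and 1.67 (db/db). The 4 members above were Ptprb, S1pr1, Vwf and Aplnr, with Ptprb at 1.48, 1.47 and 1.88 (WT), 1.20, 1.02 and 1.05 (db/+) and 1.94, 1.94 and 2.19 (db/db). The sorting depended on the reference gene. Set against Cdh5 instead, 12 members lay below, Flt1, Robo4 and Lyve1 now among them, and 18 overlapped. Only 2 lay above, Ptprb and Vwf, while S1pr1 and Aplnr overlapped. The share of all tested genes was not computed for Cdh5.

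**Figure D4:**
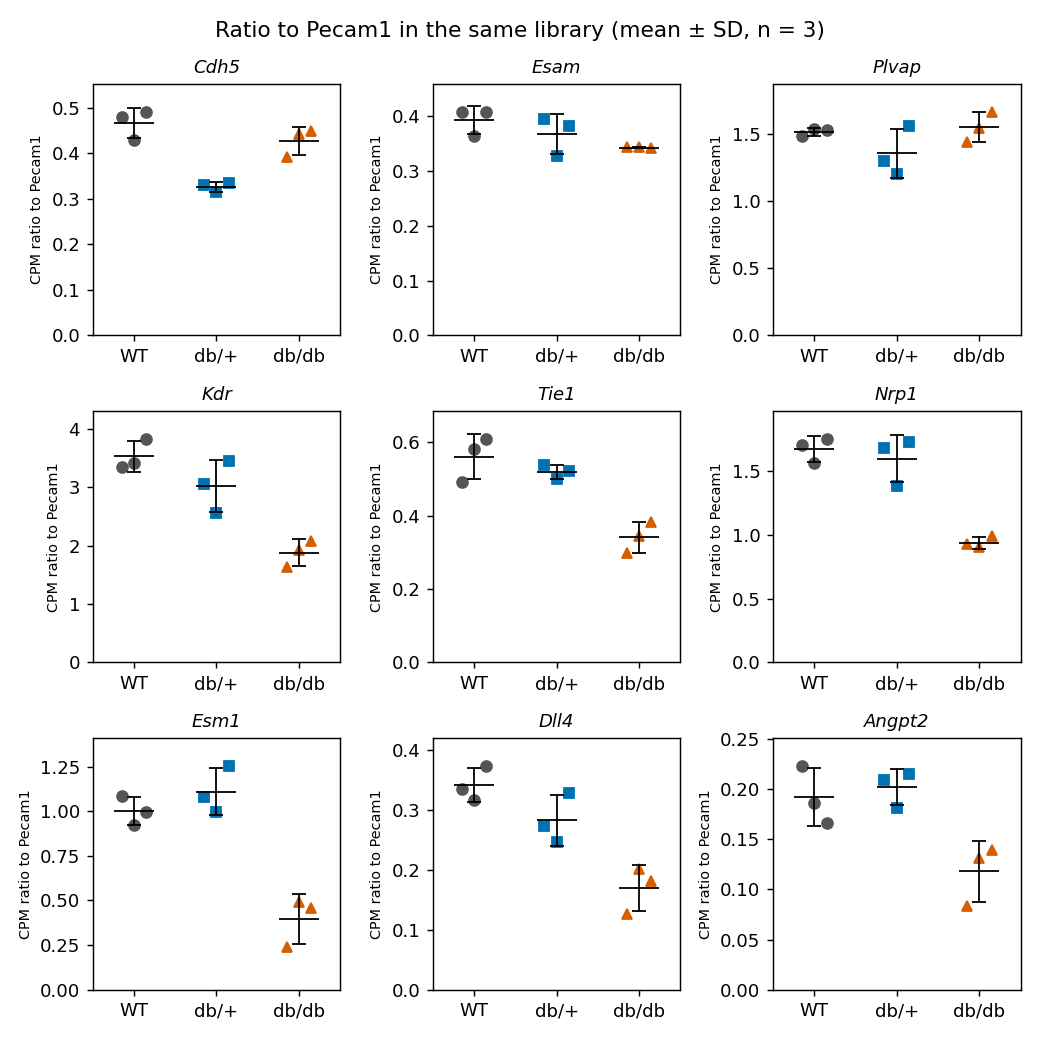
Ratio of the CPM of 9 genes to the CPM of Pecam1 in the same library, 1 panel per gene with a linear axis from 0, where points are libraries and bars the group mean and SD. Kdr, Tie1, Nrp1, Esm1, Dll4 and Angpt2 are lower in all db/db libraries than in the others, while Cdh5, Esam and Plvap overlap.

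Endothelial genes outside the list were counted in the same way. Of 35 tested, 22 rose and 1 fell against WT, and 22 rose and 2 fell against db/+, with median log2 fold changes of 0.73 and 0.72. The shares called were 65.7% and 68.6%, beside 41.7% and 40.3% of all tested genes. Sema3g, a semaphorin of arteries, stood at 7.14, 8.76 and 8.33 CPM (WT), 7.84, 7.68 and 7.51 CPM (db/+) and 25.8, 20.8 and 23.8 CPM (db/db), without overlap and at 1.54 ± 0.13 (adjusted p = 1.21e-06) against WT. Cd34, a sialomucin of capillaries, stood at 17.9, 18.96 and 14.9 CPM (WT), 21.4, 16.2 and 17.95 CPM (db/+) and 39.9, 30.6 and 33.5 CPM (db/db), also without overlap and at 1.002 ± 0.14 (adjusted p = 6.61e-05). Arhgef15, a guanine exchange factor of endothelium, was the gene that fell against WT (-0.59 ± 0.13, adjusted p = 0.00296), and it fell against db/+ too (-0.47 ± 0.13, adjusted p = 0.0131), with Klf2, a flow-responsive factor (-0.32 ± 0.09, adjusted p = 0.01). The Arhgef15 call against db/+ was lost without db/+ 2, db/db 2 or db/db 3. Without db/db 1 the counts were 19 and 4 against WT, and 22 and 3 against db/+, where 38.3% and 35.7% of all tested genes were called. Without WT 1, WT 3 and db/db 1, 13 rose and 2 fell against WT.

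The ligands moved unequally. Of 10 tested VEGF, angiopoietin and guidance ligands, 2 rose and 2 fell against WT, and 3 rose and 2 fell against db/+. The shares called were 40% and 50%, beside 41.7% and 40.3% of all tested genes, so the count against WT was near that of all genes. Vegfa stood at 504, 485 and 451 CPM (WT), 525, 548 and 553 CPM (db/+) and 208, 276 and 239 CPM (db/db). Every db/db library was far below all 6 others, and the log2 fold change was -0.99 ± 0.10 (adjusted p = 3.79e-06) against WT and -1.17 ± 0.10 (adjusted p = 1.00e-06) against db/+. Vegfb, a ligand of FLT1, fell too (-1.18 ± 0.16, adjusted p = 7.23e-05 and -1.15 ± 0.16, adjusted p = 8.63e-05). Vegfc, a ligand of FLT4, rose from a low level (1.18 ± 0.31, adjusted p = 0.00839 and 0.88 ± 0.30, adjusted p = 0.0328), a call that was lost against db/+ without db/+ 1, db/+ 3, db/db 1 or db/db 3, and with DESeq2. Angpt1, the activating ligand of TEK, rose against WT (1.83 ± 0.47, adjusted p = 0.00852), with 0.90 ± 0.44 (adjusted p = 0.122) against db/+.

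Of 12 Notch pathway genes of vessels, 7 rose and 1 fell against WT, and 8 rose and 0 fell against db/+. That is 66.7% called in each comparison, beside 41.7% and 40.3% of all tested genes. Without WT 1, WT 3 and db/db 1, leaving 1 WT library, the share called against WT was near that of all tested genes. Jag1, a Notch ligand, stood at 13.96, 12.2 and 10.4 CPM (WT), 15.8, 12.7 and 14.7 CPM (db/+) and 45.01, 22.3 and 27.5 CPM (db/db). The db/db libraries were highest, at 1.36 ± 0.24 (adjusted p = 0.00112) against WT, and the target gene Hes1 rose with it (1.04 ± 0.21, adjusted p = 0.00229). Notch1 fell against WT (-0.39 ± 0.10, adjusted p = 0.00688) while the difference from db/+ did not pass (-0.10 ± 0.10, adjusted p = 0.458). Of 8 genes by which endothelium holds leukocytes, 6 rose against WT and 7 against db/+, and none fell. The shares called were 75% and 87.5%, beside 41.7% and 40.3% of all tested genes. Jam2, a junction adhesion molecule, stood at 18.5, 20.3 and 15.4 CPM (WT), 25.2, 22.4 and 22.1 CPM (db/+) and 51.1, 36.2 and 33.6 CPM (db/db), at 1.15 ± 0.15 (adjusted p = 7.64e-05) against WT. Sele, E-selectin of activated endothelium, had 3 counts in all over the WT libraries and stood at 0.0816 to 0.566 CPM in db/+ and 2.48 to 6.998 CPM in db/db. It passed the test in both comparisons (adjusted p = 0.000114 and 0.000291).

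Basement membrane genes leaned the same way, with 6 of 11 higher against WT, 9 of 11 higher against db/+, and none lower. Of all tested genes, 21.8% and 20.6% were called higher. Low db/+ levels had a part in the second count. All db/+ libraries lay below all WT libraries for 6 of the 11, beside 10.4% of all tested genes. Hspg2 was called lower in db/+ than in WT (-1.05 ± 0.17, adjusted p = 0.0363), while db/db differed from WT by 0.05 ± 0.17 (adjusted p = 0.836). Col4a2 and Col4a1, the chains of the main collagen of that layer, rose by 0.75 ± 0.10 (adjusted p = 4.77e-05) and 0.55 ± 0.10 (adjusted p = 0.000425) against WT. These proteins are also made by pericytes and other cells. Without WT 2 or WT 3, 3 of the basement membrane genes were called against WT, where 36.7% and 35.8% of all tested genes were called.

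Markers of several other cell types were also higher in db/db. Of all tested genes, 21.8% were called higher against WT and 20.6% against db/+. Pericyte and smooth muscle markers summed to 330 to 379 CPM in WT, 274 to 338 CPM in db/+ and 700 to 969 CPM in db/db, with 8 of 13 higher in each comparison, none lower and none at 0 in any library. Rgs5 (1.31 ± 0.11, adjusted p = 8.36e-07) and Anpep (1.64 ± 0.16, adjusted p = 1.22e-05) had the smallest adjusted p against WT. Duct markers summed to 294 to 303, 301 to 326 and 714 to 1252 CPM, with 7 of 8 higher in each comparison. Acinar markers, those of the exocrine tissue around islets, summed to 5472 to 10452, 12700 to 28898 and 14662 to 40116 CPM, with 7 of 12 higher against WT and 1 of 12 against db/+. Erythroid markers summed to 17.9 to 122, 22.7 to 36.3 and 68.5 to 163 CPM. All 5 tested ones lay above db/+ in every db/db library (beside 26.2% of all tested genes), 1 of them, Hba-a2, passing the test, and 0 passed against WT. Endocrine markers, by contrast, overlapped, with 1 of 7 higher and 1 lower against WT. With the mean level of acinar genes as a covariate, 3 members (Egfl7, Rasip1 and Aplnr) and 5 of the other endothelial genes were called against WT, as were 2 ligands, 2 Notch pathway genes, 2 adhesion genes and 1 basement membrane gene. The share of all tested genes called was then 20.7%. The part of pericytes, macrophages, duct cells and blood cells was not tested.

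The first letter of the sample title, whose meaning the labels do not give, is G in all db/+ libraries, H in all db/db libraries and both in WT. Its effect was thus estimated only within WT, from WT 3 (H) beside WT 1 and WT 2 (G). With it as a covariate, 7 members and 4 of the other endothelial genes were called in db/db against db/+, where 12.1% of all tested genes then were, and 14 members against WT, where 26.3% were.

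**Figure D5:**
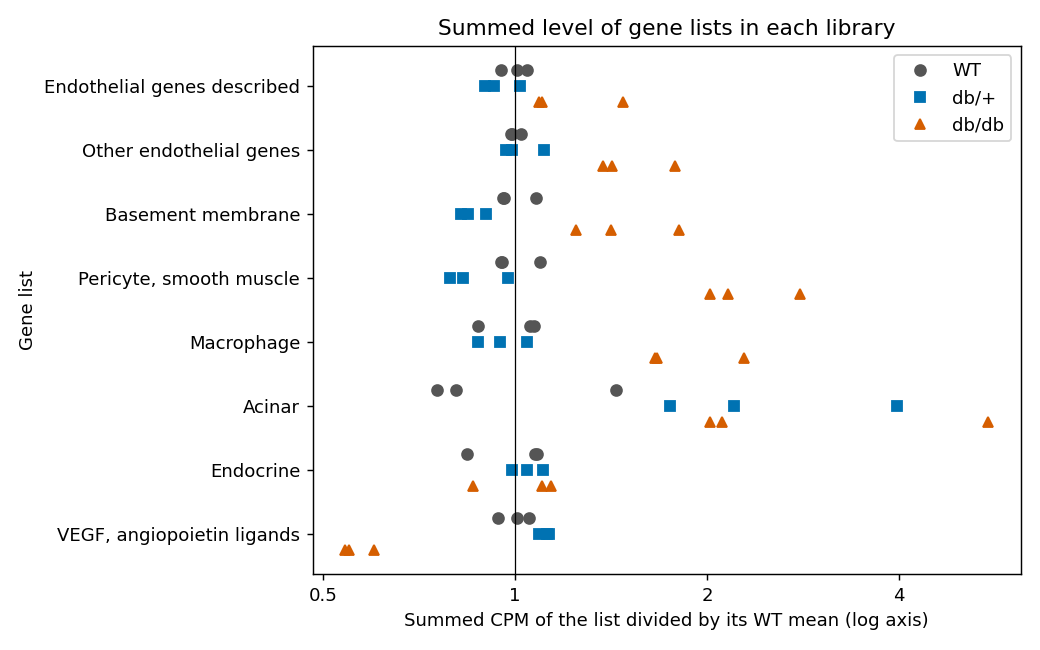
Summed CPM of 8 gene lists in each library, divided by the mean of the WT libraries, on a log axis with 1 point per library coloured by group. Pericyte, macrophage, basement membrane and other endothelial sums are above 1 in all db/db libraries, and endocrine sums overlap. The sum of VEGF, angiopoietin and guidance ligands, most of it Vegfa, is at 0.541 to 0.601 in db/db.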

How the data were processed

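Total RNA of whole islets was extracted with Trizol and ribosomal RNA was removed in library preparation (Ribo-Zero Gold), per the labels' protocols. Per the submitters' processing notes, bcl2fastq 2.20.0.422, TopHat2 2.0.14 and the mm10 genome were used. The authors deposited unnormalised whole-number counts per gene symbol, while the counter, its annotation and its strand setting are unstated in the labels and notes used here. Thus overlapping, antisense and near-identical genes can share counts. The table has 1 column that matches no sample, which was not used. Genes were kept by filterByExpr, counts were scaled with TMM factors, and all 9 libraries were fitted with a term per group by edgeR 4.0.16 in R 4.3.3 (robust dispersions, with 6 residual degrees of freedom and a common biological coefficient of variation of 0.129). Each pair of groups was tested two-sided by the quasi-likelihood method, and p-values were adjusted over 16826 genes after Benjamini and Hochberg, with 0.05 as the threshold. CPM used TMM-normalised library sizes, and each SE is the size of the log2 fold change divided by the square root of F. The tests were checked on simulated data. The members and gene lists were chosen with earlier results of these data known. Members called in any comparison, with Pecam1, Cdh5 and Kdr, were given in every library, and from each other list the 2 risen and 2 fallen genes with the smallest adjusted p against WT, with Vegfa; other names were chosen after their values were seen. Positions and upstream windows came from RefSeq (GRCm38.p6). Figures were drawn with matplotlib 3.10.9.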

Additional observations from a re-analysis of the deposited data

How the results depend on the processing

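The counts of members called were recomputed with other scalings and filters, DESeq2 1.42.0, limma-voom, only the compared groups in the fit, covariates, a test against a 1.5-fold change, and each library left out. No result that was called changed sign. For db/db against WT, 16 members were called, 3 with acinar level in the model (20.7% of all tested genes) and 5 in a test for changes beyond 1.5-fold (10.8%); leaving out each library gave 15 to 19. For db/db against db/+, 18 were called, 7 with the title letter in the model (12.1%) and 5 in the 1.5-fold test (9.88%); leaving out each library gave 12 to 20. For db/+ against WT, 1 was called, 3 without the low-count filter, 2 with DESeq2, 2 with Y-linked counts in the model, 0 with acinar level in it and 0 in the 1.5-fold test; leaving out each library gave 0 to 2. The cause was not tested. The acinar mean was highest in db/db 1 and lowest in WT 3, so it partly follows genotype. Without WT 1, WT 3 and db/db 1, an alternative chosen after seeing the data that leaves 1 WT library, whose spread is assumed to be that of the other groups, the counts were 14, 17 and 1. No paired analysis was possible because the labels give no replicate numbers. Members with few counts, such as Vwf, Tal1, Sox17 and Apln, had the widest errors, and Cldn5 could not be tested with the filter.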
